A study of Mus musculus with 17 samples.

Results

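Medium conditioned by pancreatic tumour organoids was given to mouse pancreatic stellate cells under 2 codes, T6 and T8, and the RNA of the cells under T6 was compared with that under T8. The members are the 8 conditioned-medium libraries of a series of 17, taken by the code in their titles: 4 carry T6 and 4 carry T8. The labels do not say what the codes stand for. All cells were wild-type C57BL/6J stellate cells of 2 lines, PSC4 and PSC5, kept in Matrigel for 4 days. Each code has 1 library of PSC4 and 1 of PSC5 in conditioned medium alone, and 1 of each line in conditioned medium to which neratinib, which blocks ERBB receptor kinases, was added at 300 nM. The other 9 libraries had no conditioned medium: 5 had control medium and 4 had TGF-beta at 20 ng/mL. T6 always goes with replicate number 2 and T8 with number 1, and the numbers go with passage. T6 cells were at passage 24 (PSC4) or 28 (PSC5), and T8 cells at passage 23 or 27. Within the 8 libraries the code, the number and the passage cannot be told apart. The labels do not say whether libraries of 1 group came from separate cultures, so p-values measure the spread between these libraries, which may be technical.

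Stellate cells are resident mesenchymal cells of the pancreas that store fat droplets when quiescent and turn into matrix-producing fibroblasts around tumours. Factors from tumour cells can push them toward an inflammatory state, in which interleukin 1, NF-kB and JAK/STAT signalling raise cytokines, chemokines and acute-phase proteins. TGF-beta instead favours contractile, matrix-producing cells. Keratins, claudins, E-cadherin and Epcam are marks of epithelial cells, the cells that form tumour organoids, and are low or absent in fibroblasts. Genes of these kinds are described apart.

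Library totals lay between 22168953 and 29421447 counts, and those of T6 (22168953 to 28821051) and T8 (23890625 to 29421447) overlapped. Mitochondrial genes held 1.87% to 2.41% of counts under T6 and 1.78% to 2.29% under T8. Of 20 fibroblast and stellate cell markers, 17 were at 1 CPM or more in all 9 libraries without conditioned medium, and Tcf21 was at the floor, meaning 3 counts or fewer, in all 9. CPM are counts scaled to the library total after TMM correction, and 3 counts were 0.102 to 0.135 CPM. At the floor in all 9 were 11 of 28 epithelial, 4 of 8 mesothelial, 5 of 8 acinar and 5 of 6 endocrine markers. So were 6 of 11 leukocyte, 1 of 7 endothelial and 0 of 6 pericyte markers. At 1 CPM or more in all 9 were 3 epithelial, 1 mesothelial, 1 acinar, 2 leukocyte and 3 pericyte markers, and 0 of the endocrine and endothelial ones.

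Libraries labelled PSC4 replicate 1 went against their line. A set of 50 genes separated PSC4 numbers 2 and 3 from PSC5 among libraries without conditioned medium. Their levels did not overlap and their mean log2 levels differed by 2 or more, though single libraries of the lines could lie closer. Both T6 libraries of PSC4 were on the PSC4 side of the midpoint for 82% and 80% of these genes. Both T8 libraries labelled PSC4 replicate 1 were on that side for 18%, and the control library with that label for 10%. The PSC5 conditioned-medium libraries had 20% to 30%. The T6 to T8 comparison in PSC4 therefore sets libraries on the PSC4 side against libraries that are not, and results are given over all 8 libraries, within PSC5, and with the control libraries of the same numbers taken into account. The T8 library of PSC4 with neratinib also stood apart in its summed fibroblast markers (9801 CPM against 15093 to 15980 in the other T8 libraries).

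**Figure D1:**
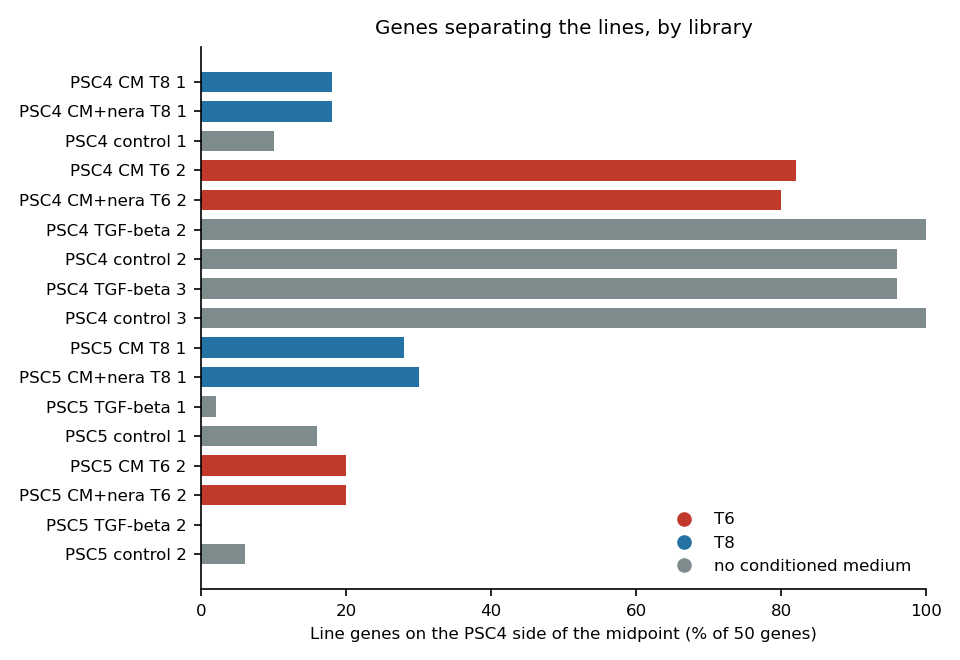
Percent of 50 line-separating genes (x axis) on the PSC4 side of the midpoint, 1 bar per library (y axis), coloured by medium code. The 3 libraries labelled PSC4 replicate 1 have bars at 10% to 18%, beside the PSC5 libraries, while the PSC4 libraries under T6 reach 80% and 82%.

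Over all 8 libraries, with neratinib and cell line as terms, 3 of 13814 genes passed an adjusted p of 0.05 in edgeR's quasi-likelihood test (0.0217% of genes tested). Lmo7 and Cd24a rose and Cxcl1 fell under T6. At an unadjusted p under 0.05 there were 775 genes higher (5.61%) and 588 lower (4.26%) under T6, and DESeq2 called 208 higher and 107 lower. No gene was called by edgeR when any 1 of the 8 libraries was left out. With the 2 T8 libraries labelled PSC4 replicate 1 removed, 180 were called higher and 280 lower. PSC4 then has T6 libraries only, so the T6 to T8 difference in that fit comes from the PSC5 libraries alone. Counting the 2 libraries with PSC5 instead gave 0 calls.

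Lmo7 encodes a LIM-domain protein of cell junctions and lies at chr14:101729957-101934710 on GRCm38. Under T6 it was at 20.7 CPM in PSC4, 18.8 in PSC4 with neratinib, 15.3 in PSC5 and 17.9 in PSC5 with neratinib. Under T8 the same 4 were 7.17, 6.35, 6.96 and 6.27 CPM. Every T6 library was above every T8 library, a 2.71-fold difference of the means. The log2 difference was 1.44 (SE 0.12, adjusted p 0.0452 in edgeR). Without conditioned medium Lmo7 was at 10.6 CPM in the control library labelled PSC4 replicate 1 and at 21.4 and 22.8 in PSC4 numbers 2 and 3. PSC5 controls numbers 1 and 2 had 8.73 and 11.2 CPM. Number 2 was thus also above number 1 without the medium (log2 difference 0.72, SE 0.26, unadjusted p 0.0295), and after allowing for this the T6 difference was 0.59 (SE 0.34, adjusted p 0.807).

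Cd24a encodes a sugar-rich surface protein tethered by a lipid anchor and lies at chr10:43578284-43584265. It was at 47.1, 71.2, 40.1 and 51.4 CPM under T6 (52.5 ± 13.4, SD, n = 4) in the same order of libraries. Under T8 it was at 22.1, 31.6, 18.7 and 22.4 CPM (23.7 ± 5.55, SD, n = 4). The groups did not overlap, and the log2 difference was 1.14 (SE 0.08, adjusted p 0.0452 in edgeR). Control libraries were above all T6 libraries, at 79.8 to 162 CPM, so both codes lay below control medium. With the numbers allowed for, the difference kept its size but was not called (0.96, SE 0.15, adjusted p 0.141).

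Cxcl1, a chemokine that draws neutrophils, lies at chr5:90891241-90893115. T6 libraries held 43.6, 55.8, 46 and 67.4 CPM, and T8 libraries 87.8, 144, 123 and 206 CPM. Every T8 library was above every T6 library, by 2.64-fold in the means, and the log2 difference was -1.35 (SE 0.11, adjusted p 0.0452 in edgeR). Controls had 9.38 to 11.2 CPM and TGF-beta libraries 0.325 to 1.72, so Cxcl1 was higher in every conditioned-medium library than in every library without it. Within PSC5 Cxcl1 also fell (log2 difference -1.52, SE 0.10, adjusted p 0.00954), and with the numbers allowed for the difference was -1.08 (SE 0.31, adjusted p 0.624).

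**Figure D2:**
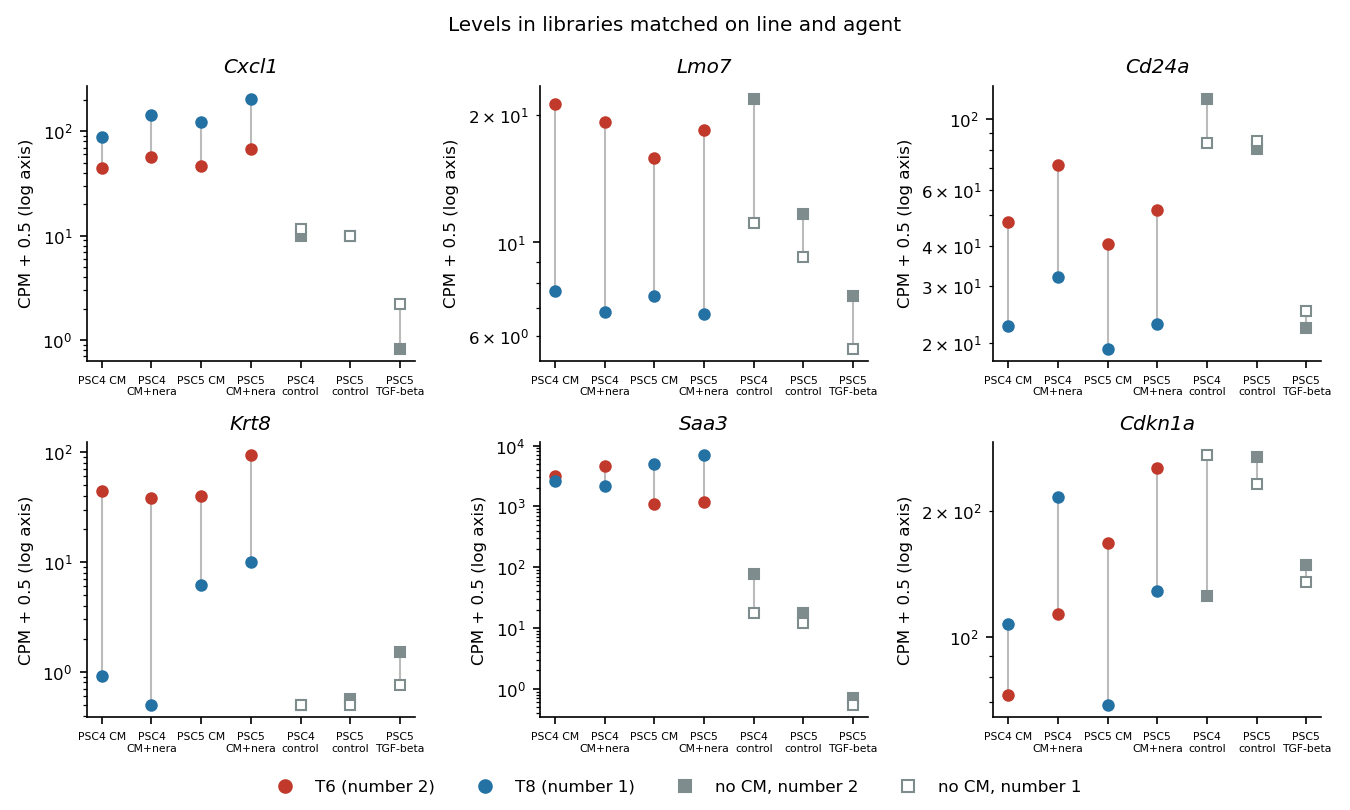
CPM plus 0.5 on a log axis (y) of 6 genes in libraries matched on line and agent (x), with T6 in red, T8 in blue and libraries without conditioned medium as squares (filled for number 2, open for number 1). Cxcl1, Lmo7, Cd24a and Krt8 separate the codes in all 4 pairs, while Saa3 and Cdkn1a point 1 way in PSC4 and the other way in PSC5.

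Epithelial genes were higher under T6 in both lines, with and without neratinib. Of 28 listed genes, 24 were tested and Cldn18, Tff1, Tff2 and Agr2 were too low. All 24 had a positive T6 to T8 difference, with a median of 3.21 on the log2 scale against -0.009 over all genes tested. None was called by edgeR over the 8 libraries. At an unadjusted p under 0.05 there were 22 higher (5.61% of all genes), and DESeq2 called 18 (1.51%). In 20 of the 24, T6 was above T8 in all 4 matched pairs, as it was for 9.16% of all genes tested. In 18, no T8 library reached any T6 library, which held for 3.05% of all genes. A gene that was low under T8 could pass the low-count filter only through its T6 libraries, so these counts describe the tested genes and support nothing further.

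Krt8 encodes a keratin that forms filaments with keratin 18 in simple epithelia. It was at 43.4, 37.8, 39.3 and 94.0 CPM under T6 in PSC4, PSC4 with neratinib, PSC5 and PSC5 with neratinib. Under T8 it was at 0.408, 0, 5.62 and 9.47 CPM. The 5 controls held at most 0.0709 CPM and the TGF-beta libraries at most 1.02 CPM. T8 levels thus differed between the line labels, near 0 in the libraries labelled PSC4 replicate 1 and at 5.62 and 9.47 in PSC5, whereas T6 levels were similar in both lines without neratinib. The difference was 4.54 over all 8 libraries (SE 0.93, adjusted p 0.203) and 3.07 within PSC5 (SE 0.15, adjusted p 0.0056), where Krt8 rose. Alternatives of the PSC5 fit gave 1.005 to 3.118, and Krt8 was called in 4 of 5, not with the replicate number as a block. That block rests on few Krt8 counts: 0 and 2 in PSC5 control and 6 and 25 in PSC5 with TGF-beta (numbers 1 and 2). With the numbers allowed for over all 17 libraries, alternatives gave 0.636 to 4.536.

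Cdh1, the E-cadherin that joins epithelial cells, was at 13.7, 10.8, 12.4 and 25.6 CPM under T6. Under T8 it was at 0.102, 0.0852, 1.30 and 2.42 CPM, and no library without conditioned medium was above 1.19 CPM. The order of the libraries was that of Krt8. Krt18 (39.8 ± 20.5 against 2.92 ± 3.00 CPM, SD, n = 4 each), Epcam (5.08 ± 1.67 against 0.348 ± 0.369) and Cldn4 (15.8 ± 6.90 against 1.08 ± 1.23) followed it too. Krt19, a keratin of ducts, was at 15.4 to 39.2 CPM under T6, 3.11 to 9.13 under T8 and 1.26 to 7.13 without conditioned medium. Only 9 epithelial genes could be tested for the replicate number in libraries without the medium. Of these only Krt19 had a low p, in the opposite direction (-0.75, SE 0.25, unadjusted p 0.0216 in edgeR). Itgb4, a laminin receptor subunit of epithelial anchoring junctions that is not on the list, was at 7.97 to 16.4 CPM under T6 and 1.28 to 2.94 under T8 (2.36, SE 0.27, adjusted p 0.0786).

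Within PSC5, whose libraries lie with their line label, 13 of the 24 epithelial genes rose and none fell, against 0.759% of all genes rising. At an unadjusted p under 0.05, 20 were higher (7.85% of all genes). The median was 2.49. Besides Krt8, Krt18 (3.09, SE 0.19, adjusted p 0.00798), Cdh1 (3.33, SE 0.18, adjusted p 0.00724) and Epcam (3.25, SE 0.31, adjusted p 0.0173) were among the 13. Here too a gene low under T8 could pass the low-count filter only through its T6 libraries. A fall could not be seen for such a gene, so these counts describe the tested genes and support nothing further. With the replicate number as a block over PSC5 libraries of all agents, edgeR called none of the 24, and the median was 2.40. Only 9 of the 24 had enough counts to be tested for the number without the medium. For the others this fit and that over all 17 libraries could hardly give a call, so the lack of one decides nothing. Over the alternatives of the PSC5 fit, this block among them, Epcam differed by 1.166 to 3.302. Krt18 differed by 2.951 to 3.142 and Cdh1 by 3.327 to 3.375. Over all 17 libraries with the numbers allowed for, edgeR called none (0% of all genes), 9 were higher at an unadjusted p under 0.05 (3.68%), DESeq2 called Cldn4 and Krt19 higher (0.201%), and the median was 2.50. Sox9 and Muc1, which the cells also expressed without conditioned medium, had differences of 0.05 (SE 0.15) and 0.44 (SE 0.31), with overlapping levels.

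The summed level of the 28 epithelial genes was 208 to 402 CPM under T6, 42.4 to 99.2 under T8 and 77.5 to 156 without conditioned medium. T6 and T8 did not overlap. Sox9, which the cells also express without the medium, held much of the sum in T8 libraries and those without the medium, at 29.2 to 126 CPM. Without Sox9, left out after seeing the data, T6 libraries had 171 to 372 CPM, and the PSC5 libraries under T8 had 51.2 and 60.6. T8 libraries labelled PSC4 replicate 1 had 24.8 and, with neratinib, 13.2 CPM, and the 9 libraries without the medium had 18.9 to 29.7. The PSC5 libraries under T8 were thus above every library without the medium, and those labelled PSC4 replicate 1 were not. The highest sum was that of PSC5 with neratinib under T6, the library with the lowest total count.

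A group of genes was at the floor in every library without conditioned medium. Of 19416 such genes, 47 had at least 10 counts in all 4 T6 libraries, and 2 (Csf3 and Acod1) had at least 10 in all 4 T8 libraries. Csf3, a cytokine that raises neutrophil numbers, met both conditions. With a minimum of 5 counts, chosen after seeing the data, the numbers were 67 and 6. The 46 genes that met the rule under T6 and not under T8 were chosen by their levels, so their difference is described and not tested. They include the claudins Cldn3 and Cldn7, the tight-junction gene Ocln, the splicing factor gene Esrp1, the transcription factor genes Ehf, Hnf4a and Foxa2, and the keratin genes Krt20 and Krt23, all named after their values were seen. For 44 of the 46 T6 was above T8 in all 4 pairs, and for 42 no T8 library reached any T6 library. Some were present under T8 too, such as Scel (9 to 16 counts) and Il1a (1 to 49 counts). Only 6 of the 46 are on the epithelial list.

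Their summed level was 52.2 CPM in PSC4, 53.1 in PSC4 with neratinib, 58.4 in PSC5 and 112 in PSC5 with neratinib under T6. Under T8 the sums were 1.26, 1.15, 9.03 and 15.4 CPM, and the 9 libraries without conditioned medium had 0.448 to 0.922. The T8 libraries labelled PSC4 replicate 1 were therefore close to libraries without the medium, and those of PSC5 lay between them and T6. For 13 of the 46 all 4 T8 libraries were at the floor. Among these, Hnf4a, a regulator of gut and liver epithelium, was at least 8.33-fold higher under T6, and Tspan8, a membrane protein of epithelial tumours, at least 14.9-fold (floor of 3 counts per T8 library). In 44 of the 46 genes PSC5 with neratinib was the highest T6 library, with a median of 0.93 (interquartile range 0.75 to 1.17) above the mean of the other T6 libraries on the log2 scale.

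**Figure D3:**
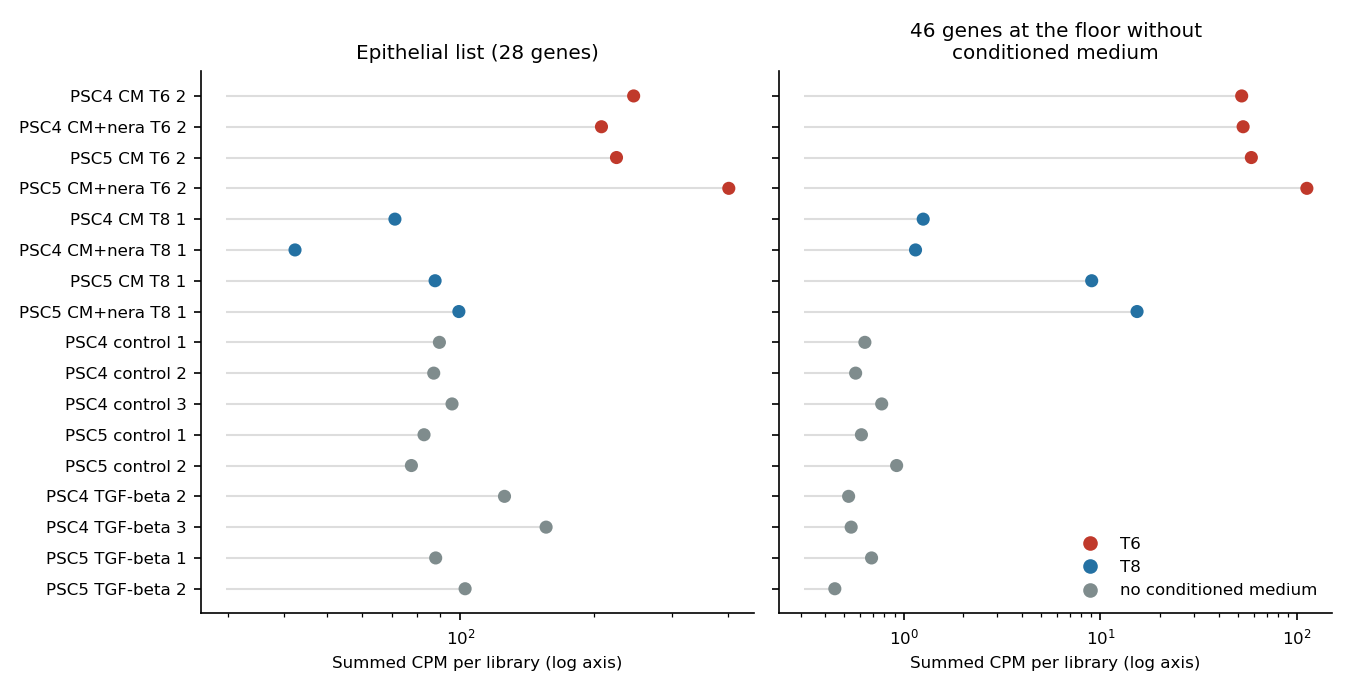
Summed CPM per library on log axes (x) for the 28 listed epithelial genes (left) and the 46 genes that met the count rule only under T6 (right), 1 point per library (y axis). T6 points lie at 208 to 402 CPM (left) and 52.2 to 112 CPM (right), and T8 points at 42.4 to 99.2 and 1.15 to 15.4.

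Genes of the Y chromosome also went with the code, at low counts. Ddx3y, an RNA helicase gene, had 3, 9, 7 and 11 counts in the T6 libraries and 0 in all 4 T8 libraries. Of the 9 libraries without conditioned medium, 8 had 0 and control PSC5 replicate 2 had 1. Eif2s3y, a translation factor gene, had 5, 7, 14 and 16 counts under T6 and 0 in all other 13 libraries. Uty had 7, 7, 6 and 6 counts under T6, 3, 2, 1 and 1 under T8 and 0 to 4 without the medium. Kdm5d was present in all 17 libraries (18 to 31 counts under T6, 6 to 31 under T8 and 2 to 16 without the medium), and Usp9y had 0 counts throughout. In bulk RNA, more cells of a type and more RNA per cell both raise a level. Whether the epithelial and Y-linked counts came from a few epithelial cells in a library or from a low level in every cell was not tested.

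Genes that stellate cells express without the medium were a larger group: 11517 of the genes tested were at 1 CPM or more in all 9 libraries without conditioned medium. Their median difference was -0.018, and 2 were called over the 8 libraries (Lmo7 and Cd24a). T6 was higher in all 4 pairs for 7.48% of them and lower in all 4 for 9.51%.

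Within PSC5, 278 of 13839 genes were called (2.01%), 105 higher and 173 lower under T6. The 4 libraries leave 1 residual degree of freedom, and on simulated counts this fit made well more false calls than its threshold allows. Of the 11517 genes expressed without the medium, 69 rose and 146 fell. When PSC5 libraries of all agents were fitted with the replicate number as a block, no gene was called.

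Inflammatory genes made up part of the lower group in PSC5. Of 30 listed genes 28 were tested, and 15 fell and none rose, against 1.25% of all genes falling. At an unadjusted p under 0.05, 22 were lower (8.58% of all genes). The median was -1.34. With the replicate number as a block over PSC5 libraries of all agents, edgeR called none of the 28, and the median was -0.72. Over all 8 libraries 1 fell (Cxcl1), 9 had an unadjusted p under 0.05 in that direction (4.26% of all genes), and the median was -0.565. With the numbers allowed for none was called, 11 had an unadjusted p under 0.05 lower (2.96% of all genes), DESeq2 called 2 lower (0.0761% of all genes), and the median was -0.50. In PSC4 the medians of the pairs were 0.15 without and 0.02 with neratinib, and in PSC5 they were -0.83 and -1.06. In these PSC5 libraries the summed epithelial level was 225 and 402 CPM under T6 and 87.7 and 99.2 under T8, and its part in the inflammatory and p53 differences was not tested.

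Il6, the cytokine that signals through gp130 and JAK/STAT, was at 9.16, 31.9, 4.79 and 19.2 CPM under T6. Under T8 it was at 8.74, 48.5, 19.6 and 51.6 CPM, and without conditioned medium at 1.08 to 5.13. Levels overlapped between the codes: T8 was the higher in both PSC5 pairs and in PSC4 with neratinib, and PSC4 without it had nearly equal values. In PSC5 Il6 fell, with a log2 difference of -1.70 (SE 0.17, adjusted p 0.019). Over the 8 libraries the difference was -1.01 (SE 0.33, adjusted p 0.418) and with the numbers allowed for -1.78 (SE 0.28, adjusted p 0.141, DESeq2 adjusted p 6.27e-05).

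Saa3, a serum amyloid A acute-phase protein, was at 1110 and 1180 CPM in PSC5 under T6 and at 4890 and 7070 under T8. In PSC4 it was at 3190 and 4560 CPM under T6 and 2600 and 2170 under T8. The order was reversed between the line labels. Saa3 fell in PSC5 (-2.36, SE 0.20, adjusted p 0.0134), and its difference in PSC5 was below that in PSC4 by 3.05 (SE 0.31, adjusted p 0.0284). Without conditioned medium the levels were 11.4 to 140 CPM in control and under 1 CPM with TGF-beta, with number 2 above number 1 (1.43, SE 0.36, unadjusted p 0.00695). Hp, the haemoglobin-binding haptoglobin, had the same layout: 206 and 163 CPM under T6 and 844 and 813 under T8 in PSC5, but 907 and 758 against 351 and 149 in PSC4.

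Lcn2, an iron-carrier-binding protein of the acute phase, was at 27 and 104 CPM under T6 and 101 and 217 under T8 in PSC5. In PSC4 it was at 57.2 and 145 against 44.7 and 152 CPM. It fell in PSC5 (-1.47, SE 0.20, adjusted p 0.0321), and the PSC4 pairs pointed in opposite directions. Of the other list members that fell in PSC5, named after their values were seen, Ptgs2, the inducible prostaglandin synthase, fell by 1.23 (SE 0.10, adjusted p 0.0134), and the chemokine Cxcl5 by 1.51 (SE 0.16, adjusted p 0.021). Ccl2, a monocyte-attracting chemokine, fell by 0.87 (SE 0.14, adjusted p 0.0496). Ptgs2, Ccl2, Cxcl1 and Lif, a cytokine of the Il6 family, were lower under T6 in all 4 pairs (8.59% of all genes), and Cxcl1 and Ptgs2 did not overlap between the codes (2.07% of all genes).

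Once the numbers were allowed for, genes with the same sign in all 4 pairs and at least 10 CPM were ranked by p. edgeR called none of the first 5 in either direction, and DESeq2 called 8 of these 10, all but Zgrf1 and Wdr37. On the lower side 2 genes of the Zc3h12 family came first. Zc3h12a, the ribonuclease Regnase-1 that destroys messages such as that of Il6, was at 18.4 to 27 CPM under T6 and 28.2 to 52.0 under T8 (-0.85, SE 0.15, edgeR adjusted p 0.203, DESeq2 adjusted p 0.0013). Its relative Zc3h12c was at 46.7 to 65.2 against 72.5 to 87.3 CPM (-0.69, SE 0.14, adjusted p 0.313). Ttc39c, Zgrf1 and Wdr37 completed the first 5, with differences of -0.76, -0.39 and -0.33. On the higher side the first 5 were Itgb4 (2.47, edgeR adjusted p 0.141, DESeq2 1.3e-05), Krt19 (2.69, edgeR 0.141, DESeq2 3.78e-06), Cd24a, Cldn4 (4.18, adjusted p 0.28) and the integrin gene Itga3 (0.79, adjusted p 0.306). In that test 0 of 14449 genes were called by edgeR (0%), 532 were higher and 428 lower at an unadjusted p under 0.05, and DESeq2 called 29 higher and 11 lower. Removing the 3 libraries labelled PSC4 replicate 1 gave 1 higher and 5 lower.

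The promoters of Cxcl1 and Il6 are shown because both genes fell in PSC5 and are textbook targets of NF-kB. These are the 250 bases before each start in RefSeq on GRCm38.p6, Cxcl1 at chr5:90890995-90891244 and Il6 at chr5:30012864-30013113, both on the plus strand, with capitals where the NF-kB consensus of 10 bases matches on either strand.
Cxcl1: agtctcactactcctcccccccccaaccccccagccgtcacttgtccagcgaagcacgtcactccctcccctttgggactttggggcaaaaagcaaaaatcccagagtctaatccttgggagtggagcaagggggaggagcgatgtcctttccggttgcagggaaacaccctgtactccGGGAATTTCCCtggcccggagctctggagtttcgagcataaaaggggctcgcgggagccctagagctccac
Il6: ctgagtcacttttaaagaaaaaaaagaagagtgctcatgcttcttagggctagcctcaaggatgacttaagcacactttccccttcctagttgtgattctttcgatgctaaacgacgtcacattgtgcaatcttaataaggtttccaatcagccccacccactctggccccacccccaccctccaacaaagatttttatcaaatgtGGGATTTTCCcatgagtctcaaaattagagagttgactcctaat
Cxcl1 has 2 overlapping matches, 1 on each strand, and Il6 has 1. Of 30 inflammatory genes, 24 had a promoter in the table, and 8 of these held a match. Of the 15 that fell in PSC5, 10 had a promoter in the table and 3 held a match, against 3.90% of all 32851 promoter windows of that length. Of 19 epithelial genes with a promoter there, 2 held a match. Whether a match goes with the fall in PSC5 was not tested. A match is a description of the sequence, not a shown binding site.

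Targets of p53, the tumour suppressor that answers DNA damage and stress, moved the other way in PSC5. Of 16 listed genes, all tested, 8 rose in PSC5 and none fell (0.759% of all genes rose), with a median of 0.585. With the replicate number as a block over PSC5 libraries of all agents, edgeR called none of the 16, and the median was 0.43. Number 2 was above number 1 for 15 of the 16 in PSC5 control (median 0.18). In PSC5 with TGF-beta it was above for 10 and below for 5 (median 0.12). Over the 8 libraries none was called by edgeR or DESeq2, 1 was higher at an unadjusted p under 0.05 (5.61% of all genes), and the median was 0.18. Cdkn1a, which encodes the cell-cycle inhibitor p21, was at 167 and 253 CPM in PSC5 under T6 and 68.3 and 128 under T8 (1.13, SE 0.11, adjusted p 0.0196). In PSC4 the order was opposite, with 72.0 and 113 against 107 and 216 CPM. The difference between the lines was 1.89 (SE 0.17, adjusted p 0.0281). In control medium Cdkn1a was at 272 CPM in the library labelled PSC4 replicate 1 and at 125 and 87.1 in PSC4 numbers 2 and 3, beside 232 and 268 in PSC5. A gap of the same direction as in the PSC4 pairs was thus present in control medium between the same numbers, while PSC5 controls differed little. Zmat3, an RNA-binding target of p53, rose by 0.85 in PSC5 (SE 0.09, adjusted p 0.021), and was 0.71 with the numbers allowed for (SE 0.14, adjusted p 0.28, DESeq2 adjusted p 0.00291). With the numbers allowed for, 8 of the 16 were higher at an unadjusted p under 0.05 (3.68% of all genes).

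**Figure D4:**
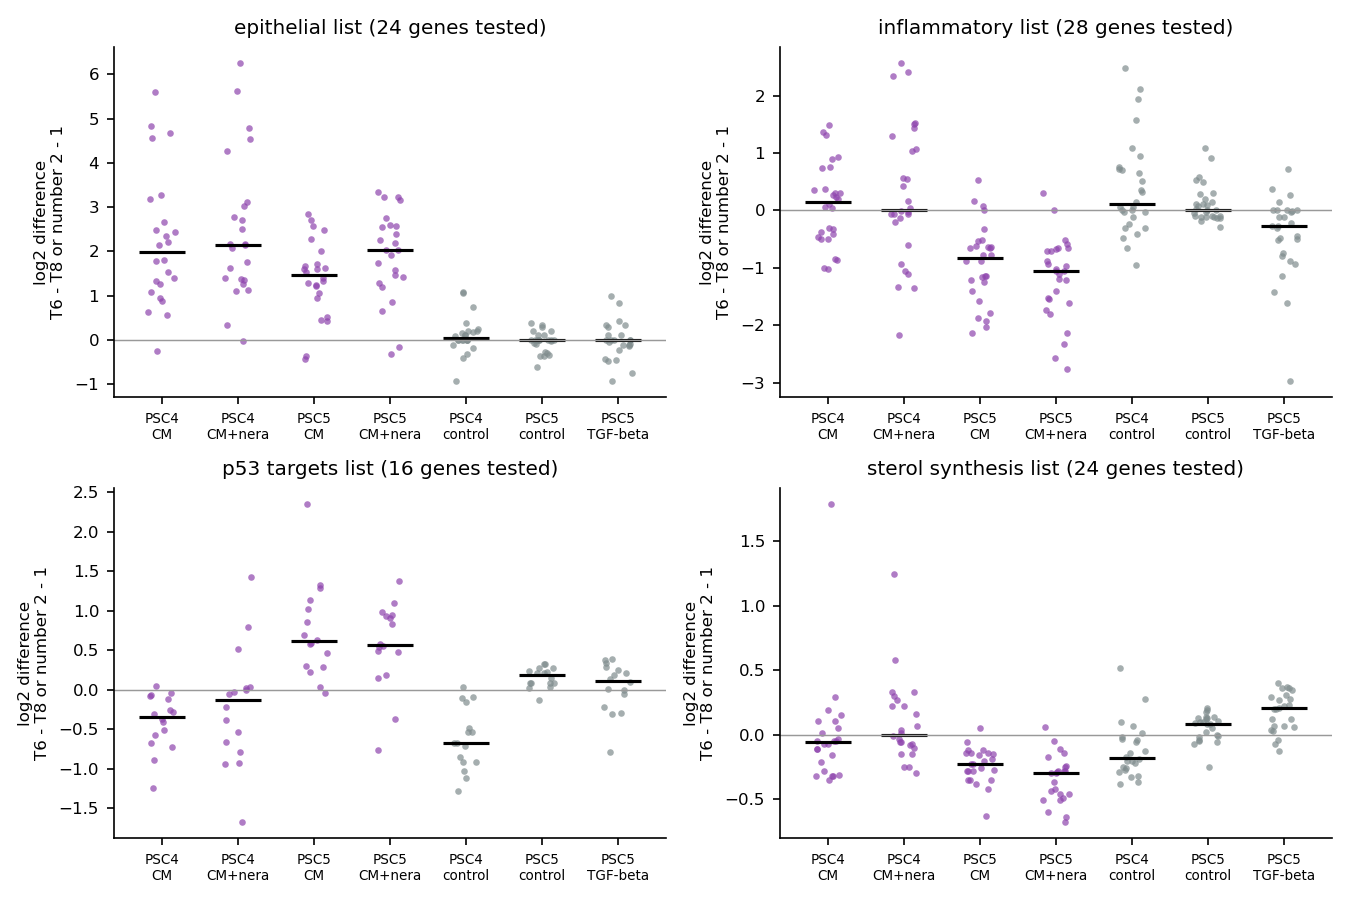
Log2 differences (y axis) of single genes in 4 lists, T6 minus T8 in the 4 matched pairs (purple) and number 2 minus number 1 in 3 pairs without conditioned medium (grey), with a bar at each median. Epithelial medians lie above 0 in the 4 conditioned-medium pairs (1.46 to 2.15), with 1 or 2 of 24 genes below 0 in each. The p53 target medians are above 0 in the PSC5 pairs (0.61 and 0.56) and below it in the PSC4 pairs and in PSC4 control (-0.68). In PSC5 control and PSC5 with TGF-beta they are 0.18 and 0.12.

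Of matrix and contractile genes edgeR called none over the 8 libraries (0.0217% of all genes). At an unadjusted p under 0.05, 3 were higher (5.61% of all genes) and 3 lower (4.26%). DESeq2 called Ccn2 higher (1.51% of all genes) and Dcn lower (0.775%). Col1a1, the main fibrillar collagen chain, was at 1280, 1040, 1490 and 793 CPM under T6 and 1720, 423, 1640 and 1670 under T8 (-0.17, SE 0.37). Its lowest value was in the T8 library of PSC4 with neratinib. Acta2, the smooth-muscle actin of myofibroblasts, was at 74.7 to 210 CPM against 68.6 to 170 (0.15, SE 0.37), and Tagln, an actin-binding protein, at 32.3 to 124 against 36.3 to 102 (-0.09, SE 0.32). Pdgfra, a growth factor receptor of fibroblasts, was at 119 to 609 against 60.5 to 374 CPM (0.39, SE 0.55). All 4 genes overlapped between the codes. Of the 20 fibroblast markers 19 were tested, and in PSC5 edgeR called Dcn and Lum lower (1.25% of all genes) and none higher (0.759%), while DESeq2 called 7 lower (2.15%) and 1 higher (0.962%). Of the 24 myofibroblast genes 23 were tested. In PSC5 edgeR called 1 higher (Ccn2, 0.759% of all genes) and 5 lower (1.25%), among them Igfbp3, Tnc, Inhba and Tgfb1. DESeq2 called 3 higher (0.962%) and 7 lower (2.15%) in PSC5. Number 2 was also below number 1 in PSC5 with TGF-beta for the fibroblast (median -0.71) and myofibroblast lists (median -0.5).

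Dcn encodes decorin, a small proteoglycan that binds collagen and TGF-beta. It was at 1280, 1240, 1010 and 901 CPM under T6 and at 1510, 1990, 2340 and 2200 under T8, with no overlap. The difference was -0.86 over the 8 libraries (SE 0.19, adjusted p 0.238, DESeq2 adjusted p 0.000979) and -1.25 in PSC5 (SE 0.14, adjusted p 0.0241). Number 2 was also below number 1 without the medium (-0.91, SE 0.20, unadjusted p 0.00354), and with the numbers allowed for the difference was 0.03 (SE 0.41). Igfbp3, a carrier of insulin-like growth factors, overlapped between the codes and was also lower in number 2 without the medium, with -1.53 in PSC5 (SE 0.13, adjusted p 0.014), -1.15 for the number without the medium (SE 0.40, unadjusted p 0.0264) and -0.04 with the numbers allowed for. Ccn2, a matrix protein gene induced by TGF-beta and YAP, was at 35.5 to 61.2 CPM under T6 and 14 to 37.1 under T8 and rose in PSC5 (0.72, SE 0.09, adjusted p 0.0299).

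Sterol synthesis, the pathway that makes cholesterol, had small differences in 1 direction. Of its 24 genes 10 were lower under T6 in all 4 pairs (8.59% of all genes), with none higher in all 4. None was called in any of the 3 fits, and the median was -0.175 over the 8 libraries and -0.314 in PSC5. At an unadjusted p under 0.05, 9 were lower over the 8 libraries (4.26% of all genes), and DESeq2 called 2 lower (0.775%).

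Interferon response genes pointed together within single pairs, in directions that differed between pairs. All 34 were lower under T6 in PSC4 without neratinib (median -0.84) and 30 were higher in PSC4 with it (median 0.80), while the PSC5 medians were 0.03 and -0.70. None of these 34 genes or of 30 proliferation genes was called by edgeR over the 8 libraries or in PSC5. At an unadjusted p under 0.05 over the 8 libraries there were 3 and 1 of these, all lower (4.26% of all genes). DESeq2 called 1 and 0 lower (0.775% of all genes). Mki67, a protein of dividing cells, was at 326 to 485 CPM under T6 and 378 to 446 under T8 (-0.02, SE 0.12). Among 13 tested ERBB ligands and receptors edgeR called none, and DESeq2 called Tgfa higher (1.51% of all genes). At an unadjusted p under 0.05, 4 were higher (5.61% of all genes) and 2 lower (4.26%). For Areg and Hbegf, which are ligands of the EGF receptor, the differences were -0.11 (SE 0.31) and -0.44 (SE 0.29). Dusp6, a phosphatase that ERK signalling induces, was -0.03 (SE 0.20). Levels of Mki67, Areg, Hbegf and Dusp6 overlapped between the codes.

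Control and TGF-beta libraries with the same numbers show what goes with number and passage in the absence of conditioned medium. Their PSC4 control pair also sets a library at 10% on the PSC4 side against one at 96%, so there number and line identity cannot be told apart. Over 7 libraries, number 2 against 1 gave 0 calls of 13533 in edgeR (0%), 130 genes higher (0.961%) and 218 lower (1.61%) at an unadjusted p under 0.05, and 1 call by DESeq2. Of the epithelial list 9 were tested, with a median of 0.07. Of the inflammatory list 22 were tested, with a median of -0.10 and 2 higher at an unadjusted p under 0.05, Saa3 and Hp. Of the fibroblast and myofibroblast lists 19 and 24 were tested, with medians of -0.24 and -0.22. In each, 3 were lower at an unadjusted p under 0.05 (1.61% of all genes) and 0 higher. In PSC5, number 2 was lower for 18 of 19 fibroblast genes with TGF-beta and 14 in control. Of 23 myofibroblast genes, 20 were lower with TGF-beta, but 13 were higher in control. The T6 to T8 and number 2 to 1 comparisons share no library. Across 13275 genes, which are not independent replicates, T6 minus T8 in the PSC4 pairs correlated with number 2 minus 1 in PSC4 control at r = 0.692. In PSC5 r was 0.152 with control and 0.148 with TGF-beta. Lines and numbers are what these points share. Of the 254 genes called in PSC5 that were tested for the number, 110 had the same sign there, and 9 of these an unadjusted p under 0.05.

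**Figure D5:**
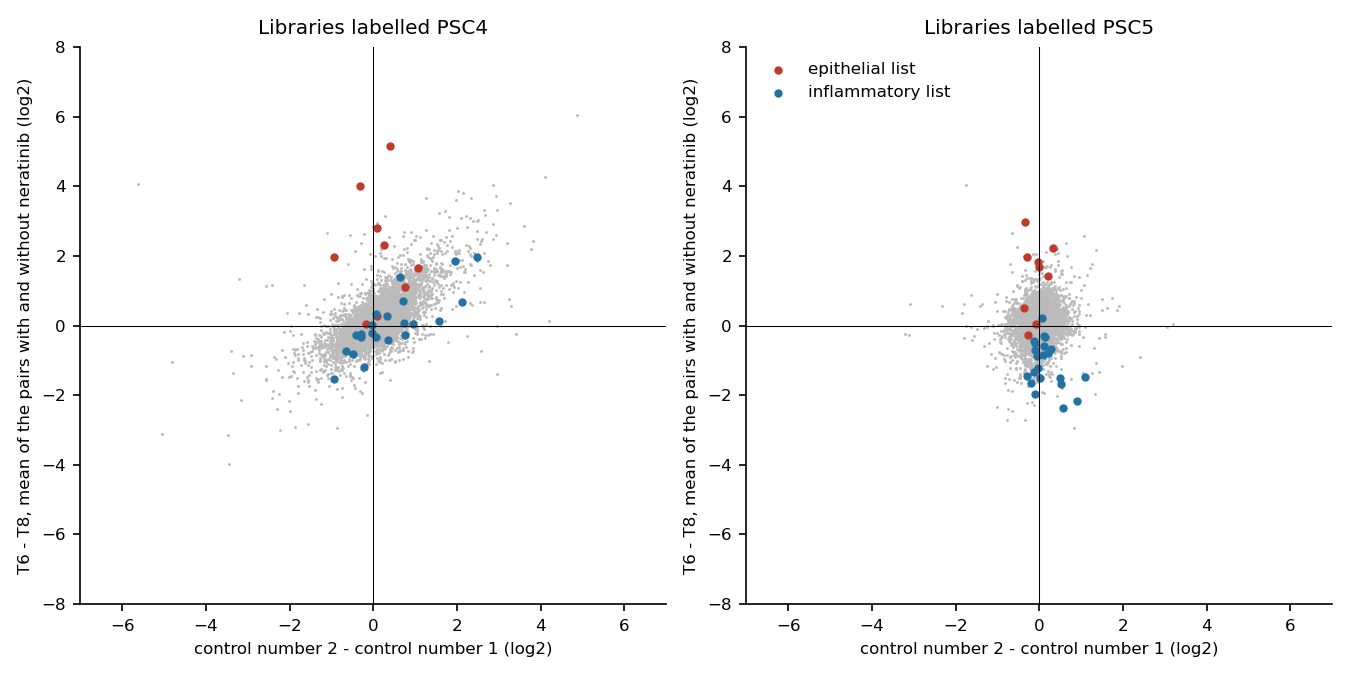
T6 minus T8, mean of the pairs with and without neratinib (y axis, log2), against control number 2 minus control number 1 (x axis, log2), 1 point per gene (13275), with 9 epithelial and 22 inflammatory list genes coloured. The cloud is tilted in libraries labelled PSC4 (r = 0.692) and nearly round in PSC5 (r = 0.152).

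The T6 to T8 difference was compared between the lines. Of 13814 genes 360 were called (2.61%), 126 with a higher (0.912%) and 234 with a lower (1.69%) difference in PSC5 than in PSC4. Pcdh17, a cell-adhesion protocadherin, was at 0.775 and 0.350 CPM under T6 and 24 and 10.5 under T8 in PSC4, but 26.0 and 9.20 against 12 and 6.49 in PSC5 (5.75, SE 0.29, adjusted p 0.0078). Auts2, a neurodevelopmental gene, was at 126 and 121 CPM under T6 and 7.14 and 4.94 under T8 in PSC4, and at 8.01 and 9.75 against 16 and 14.8 in PSC5 (-5.15, SE 0.26, adjusted p 0.0078). Control medium showed a like gap in PSC4, with Pcdh17 at 14.7 CPM in replicate 1 and 0.892 and 0.739 in numbers 2 and 3. Igf2bp1 (2.65, adjusted p 0.0369), Crabp1 (2.58, adjusted p 0.0281) and Smoc1 (-5.45, adjusted p 0.0369) were also called. Of the lists, 7 of 16 p53 targets were called with a higher and 4 of 28 inflammatory genes with a lower difference in PSC5. Among 278 genes called in PSC5, 71 had the same sign in both PSC4 pairs and 150 the opposite sign in both. The count of 360 was 3500 without the T8 library of PSC4 in conditioned medium alone, 702 without that with neratinib, 2 without the T8 library of PSC5 with neratinib and 0 without any of the other 5. The T8 libraries of PSC4 are those that lie with PSC5, and the part of this in the line difference was not tested.

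Whether the difference depends on neratinib could hardly be tested. The fit had 3 residual degrees of freedom, as had that between the lines. It has no term for a T6 to T8 difference that differs between the lines, which adds to its spread. The coefficient of variation between libraries was 25%, against 15.5% in the fit between the lines. Of 13814 genes 0 were called by edgeR (0%), 12 were higher (0.0869%) and 12 lower (0.0869%) at an unadjusted p under 0.05, and DESeq2 called 3. Egr1, an early growth response transcription factor that ERK signalling induces, was at 320 and 389 CPM under T6 and 317 and 426 under T8 without neratinib, and at 129 and 148 against 177 and 252 with it. Its difference was lower by 0.56 with neratinib (unadjusted p 0.0219, not called), and that of Pde8b, a phosphodiesterase gene, higher by 0.73 (unadjusted p 0.041, not called).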

How the data were processed

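RNA-seq libraries of 17 stellate cell samples were used. The authors deposited expected counts per gene; the submitters' processing notes name Salmon 1.4.0, DESeq 2, GRCm38 and mm10, with no role or order. Of the 35896 gene IDs, 35437 had a symbol, and 74.8% of nonzero values were not whole. Counts were rounded, and genes filtered by filterByExpr (10 counts, 15 in total). The main test was edgeR 4.0.16's quasi-likelihood test (limma 3.58.1, R 4.3.3) with TMM, neratinib and line as terms and Benjamini-Hochberg adjustment over all genes tested. DESeq2 1.42.0 was an alternative. A fit over all 17 libraries held line and replicate number as blocks, another took number 2 against 1 in 7 libraries without conditioned medium, and others took PSC5 alone or an interaction. Line and number pairs deviated together: 22 same-line, same-number pairs correlated at 0.135 to 0.702, and 32 pairs of other numbers at -0.601 to 0.695. Scripts were tested on simulated data, where false calls exceeded the threshold most in the fit within PSC5. Genes were named if called with the same sign in all 4 pairs and at least 10 CPM, with 17 genes named whatever their values; where nothing was called, the 5 smallest p in each direction were taken. Other names were chosen after their values were seen, and results of a few genes are not reported here. The members and lists were chosen with earlier results of these data known. Pair differences are of log2(CPM + 0.5). Alternatives were other scalings, filters, models and leaving out libraries. The line check was added after seeing the data.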

Additional observations from a re-analysis of the deposited data

Results flagged for a closer look

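Of 104 groups of 4 libraries checked, 6 had 1 library far from the other 3 (gap over range above 0.829). Chance gives about 1 in 20.

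PSC5 with neratinib under T6 was the highest T6 library for Krt8, at 94.0 CPM against 37.8 to 43.4 in the others. It was also the highest for Itgb4 (16.4 CPM against 7.97 to 9.26) and for the sum of the 46 genes at the floor without conditioned medium (111.9 CPM against 52.2 to 58.44).

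The T8 library labelled PSC4 replicate 1 with neratinib was the lowest T8 library for Col1a1, at 423.0 CPM against 1640 to 1720, and for the summed fibroblast and stellate markers, at 9801.48 CPM against 15092.73 to 15979.79. It was the highest for the summed targets of NRF2, the regulator of antioxidant genes, at 4219.44 CPM against 1461.02 to 1849.63.

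The T6 to T8 difference differed between the lines for 360 genes in edgeR's interaction test, in which the T8 libraries of PSC4 are those that lie with PSC5. Among these genes, PSC5 minus PSC4 was 5.75 on the log2 scale for Pcdh17 (adjusted p 0.0078), 2.65 for Igf2bp1 (adjusted p 0.0369) and 2.58 for Crabp1 (adjusted p 0.0281). It was -5.45 for Smoc1 (adjusted p 0.0369) and -5.15 for Auts2 (adjusted p 0.0078).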

How the results depend on the processing

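Over the 8 libraries, the 3 called genes became 315 with DESeq2 and 6 with no filter on low counts. With all 17 libraries there were 127 without a replicate block and 0 with the replicate block. There were 0 with the T8 libraries labelled PSC4 replicate 1 counted with PSC5, 460 with these 2 removed, and 278 in PSC5 alone. The differences behind the 460 also come from the PSC5 libraries, because PSC4 then has no T8 library. PSC4 alone, libraries without neratinib alone and libraries with neratinib alone each gave 0, as did leaving out any 1 library (0 to 0). Lmo7, Cd24a and Cxcl1 kept their direction in all 21 alternatives and were called in 7 each, with log2 differences of 0.593 to 1.55, 0.954 to 1.197 and -1.521 to -1.08. Their adjusted p ranged up to 1.

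With the numbers allowed for, the 0 calls became 40 with DESeq2, 127 with no replicate block and 6 when the 3 libraries labelled PSC4 replicate 1 were dropped. Leaving out 1 library gave 0 to 3, with 3 without the T8 library labelled PSC4 replicate 1 in conditioned medium alone and 1 without control PSC5 replicate 1. Number 2 against 1 gave 1 with DESeq2 and 0 to 0 with 1 library left out. The neratinib interaction gave 3 with DESeq2 and 0 to 0 with 1 left out. The line interaction gave 1691 with DESeq2 and 0 to 3500 with 1 left out. Within PSC5 the 278 became 483 with no filter, 150 at a log2 difference of at least 1, and 0 with PSC5 libraries of all agents and the replicate block. Upper-quartile factors gave 149 higher and 171 lower there. Leaving 1 library out of 4 leaves no residual degrees of freedom, so it was not run. The cause of these changes was not tested.

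Genes that changed sign were none of those called over the 8 libraries. In PSC4 alone they were Col1a1 (0.441), Acta2 (-0.339), Saa3 (0.69), Lcn2 (0.146), Dusp6 (0.43) and Mki67 (0.215). In PSC5 alone they were Tagln (0.485), Pdgfra (-0.613), Areg (0.23) and Hbegf (0.243). Counting the PSC4 replicate 1 libraries with PSC5 gave the same 4 as 0.561, -0.246, 0.054 and 0.105, and dropping these libraries 0.463, -0.6, 0.219 and 0.243. With the replicate block, Col1a1 was 0.171, Tagln 0.458, Areg 0.06 and Hbegf 0.029. With neratinib alone Col1a1 was 0.126 and Dusp6 0.009, and without it Mki67 was 0.08. Tagln was 0.045 with no line term. Upper-quartile factors gave Dusp6 0.013 and Mki67 0.03. Within PSC5, the replicate block gave Pdgfra 0.344 and Areg -0.14. With 1 of the 8 libraries left out, Tagln ran from -0.388 to 0.309, Col1a1 from -0.516 to 0.233, Dusp6 from -0.196 to 0.111 and Mki67 from -0.113 to 0.067. Acta2 ran from -0.169 to 0.635, Areg from -0.342 to 0.202 and Pdgfra from -0.101 to 0.958.

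Each line, agent and code has 1 library, and the code goes with number and passage. Differences of genes near 3 counts (0.102 to 0.135 CPM) were not detectable at this depth.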

Other observations

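Of 11 leukocyte markers, Cd14, a co-receptor for bacterial products, held most of the summed level in the conditioned-medium libraries. Cd14 was at 43.9, 55, 23.3 and 32.1 CPM under T6, at 32.5, 46.3, 49.9 and 64.3 under T8 and at 4.15 to 15.6 without conditioned medium, so the codes overlapped. Adgre1, Cd3e and Tyrobp had 0 counts in all 17 libraries, and Ptprc at most 1. ATF4 targets, genes of amino acid supply and stress, pointed to lower levels under T6 in both PSC4 pairs (23 and 22 of 24 lower) and in opposite directions in PSC5 (15 of 24 lower without and 21 of 24 higher with neratinib). None of the 24 was called by edgeR over the 8 libraries, 1 was lower at an unadjusted p under 0.05 (4.26% of all genes), and DESeq2 called 0.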
